A study of Mus musculus with 6 samples.

Results

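Angiogenin and its relatives among the secreted ribonucleases, with the protein that inhibits them, were followed in RNA from whole mouse stomach. The members were taken by gene symbol from a table of 23550 genes and are 6 in number: Ang, Ang4, Rnase4, Rnase1, Rnase6 and Rnh1. They were chosen by family, with the measured Riclin and saline levels of this same comparison in view, so their differences between groups are given as a description, with no test. Mice received either normal saline or Riclin, a soluble dietary fibre, by gavage. The Riclin dose was 20 mg/kg and gavage lasted 14 days. There were 3 libraries in each group, numbered 1, 2 and 4 in saline and 2, 3 and 4 in Riclin. The sources used do not state strain, sex or age, nor that each library came from its own animal, so the spread between libraries may be partly technical. Levels are in FPKM, which scales fragments by gene length and by sequencing depth. Between 30689019 and 39772511 reads per library were recovered from these values. Gastric markers were high in every library, with summed levels of 33811 to 81984 FPKM for 4 chief cell genes, 3166 to 5675 for 7 parietal cell genes and 58129 to 105016 for 6 surface mucous cell genes.

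Ribonucleases of this family are small secreted enzymes that cut single-stranded RNA. Rnase1 is the pancreatic digestive ribonuclease and is also made elsewhere, for example by blood vessel lining. Angiogenin, the product of Ang, is a weak ribonuclease that promotes blood vessel growth and, in stressed cells, cuts transfer RNA. Ang4 is a microbe-killing angiogenin of Paneth cells and goblet cells in the mouse intestine. Rnase4 is a ribonuclease with a preference for uridine. Rnase6 is an antimicrobial ribonuclease of monocytes and macrophages. Rnh1 encodes the cytosolic ribonuclease inhibitor, a leucine-rich repeat protein that binds these enzymes very tightly.

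The 5 enzymes carry the family's signature motif, which holds a lysine of the catalytic site. Its codons were found once, in frame, in the coding sequence of each gene. The stretches below show how alike Ang and Ang4 are and how the others differ. They are written 5′ to 3′ from GENCODE M21 transcripts on GRCm38, with the codons of the motif in capitals and the 15 bases on either side in lower case.
Ang: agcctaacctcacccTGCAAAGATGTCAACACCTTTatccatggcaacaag
Ang4: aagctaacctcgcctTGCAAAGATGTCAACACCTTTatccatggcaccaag
Rnase4: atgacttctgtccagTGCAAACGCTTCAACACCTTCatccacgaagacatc
Rnase1: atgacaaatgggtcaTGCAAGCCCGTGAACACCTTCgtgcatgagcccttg
Rnase6: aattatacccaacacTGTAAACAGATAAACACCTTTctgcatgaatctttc
Over the 21 bases of the motif Ang and Ang4 were identical. Ang matched Rnase4 and Rnase6 at 16 of the 21 bases and Rnase1 at 15. Over the whole coding sequence, Ang was 84.8% identical to Ang4, 53.6% to Rnase4, 51.3% to Rnase1 and 49.4% to Rnase6. Closest to Ang was Ang2, at 88.0%, and their transcripts shared an identical run of at most 41 bases. Ang4 and Ang5 shared a run of 79 bases, so that reads of those copies could be split between them.

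The 5 enzyme genes lie on chromosome 14 of GRCm38, the assembly that mm10 names, and all 6 members are protein-coding. On the plus strand are Rnase4 from 51091077 to 51106151, Ang from 51091150 to 51102009 and Rnase6 from 51123908 to 51132187. On the minus strand are Rnase1 from 51144998 to 51146785 and Ang4 from 51763878 to 51773590. The stretch from Rnase4 to Rnase1 spans 55.7 kb, and Ang4 begins 617 kb beyond it. Rnh1 is on chromosome 7, minus strand, from 141160326 to 141172857. Ang lies within the span of Rnase4. Each gene has 2 annotated transcripts, with one non-coding first exon near the common start and another further in, and each gene has its own last exon, which holds the coding sequence. Of the 1202 exonic bases of Ang, 219 also belong to Rnase4, 18.2% of Ang and 13.4% of the 1637 exonic bases of Rnase4. Reads in those bases cannot be assigned to one gene, and the sources used do not state how they were counted. The gene lengths that the FPKM values imply were 1282 bases for Ang and 2008 for Rnase4, longer than these exonic lengths by 80 and 371 bases.

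**Figure D1:**
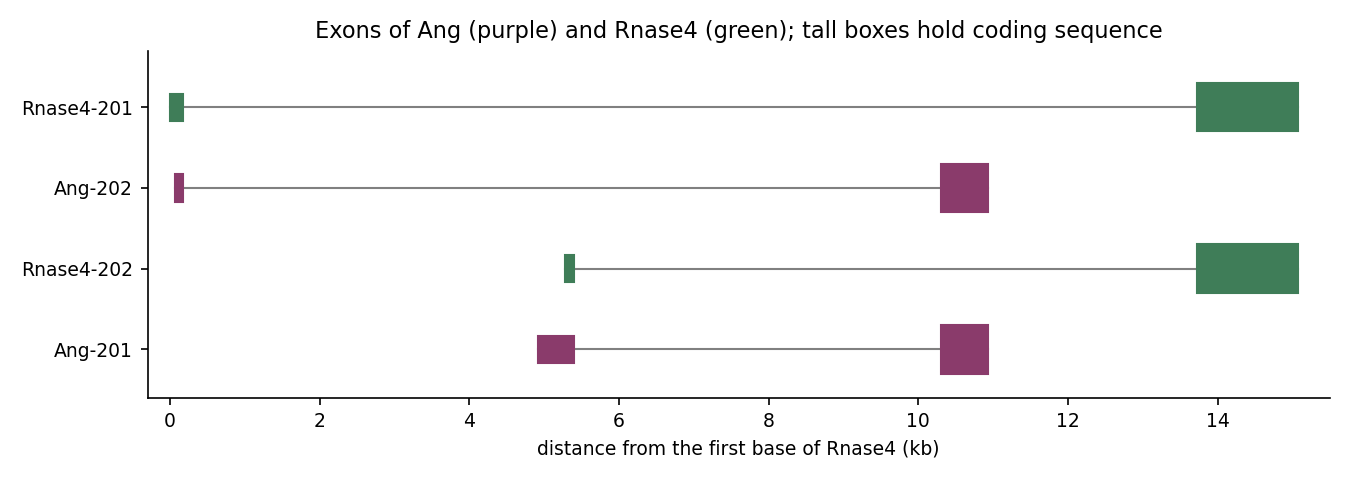
Exons of the 2 annotated transcripts of Ang (purple) and of Rnase4 (green), in kb from the first base of Rnase4; tall boxes are exons that hold coding sequence and low boxes are non-coding exons. The low boxes of the genes lie over each other at both starts (219 shared exonic bases), while the tall boxes do not overlap.

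Promoter windows, the 250 bases before and 50 after a start, were taken from RefSeq on GRCm38.p6, where all 6 members were found. The window at chr14:51090827-51091126, plus strand, is listed for Ang and for Rnase4 alike. Of 32817 distinct windows, 34 (0.1%) are listed for more than 1 symbol. Rnase4 has another window at chr14:51095750-51096049, plus strand, at the inner start. Both are printed because Ang and Rnase4 can start there, and that of Rnase1 (chr14:51146718-51147017, minus strand) and Ang4 (chr14:51773541-51773840, minus strand) because their levels, given further on, varied most between libraries. Capitals mark matches on either strand to the E-box CANNTG, the TATA box TATAAA, its variant TATATA (which can overlap it) or the GC box GGGCGG.
Ang and Rnase4, outer start: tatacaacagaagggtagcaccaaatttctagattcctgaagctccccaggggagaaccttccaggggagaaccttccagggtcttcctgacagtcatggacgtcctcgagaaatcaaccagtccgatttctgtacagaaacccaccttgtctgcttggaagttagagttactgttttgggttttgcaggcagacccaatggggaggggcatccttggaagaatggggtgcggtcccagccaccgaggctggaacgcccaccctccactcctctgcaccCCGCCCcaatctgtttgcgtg
Rnase4, inner start: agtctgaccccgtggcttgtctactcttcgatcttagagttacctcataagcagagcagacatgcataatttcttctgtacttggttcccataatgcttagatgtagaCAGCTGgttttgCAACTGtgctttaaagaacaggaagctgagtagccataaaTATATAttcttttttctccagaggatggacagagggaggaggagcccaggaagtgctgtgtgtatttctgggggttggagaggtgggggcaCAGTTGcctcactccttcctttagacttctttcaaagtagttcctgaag
Rnase1: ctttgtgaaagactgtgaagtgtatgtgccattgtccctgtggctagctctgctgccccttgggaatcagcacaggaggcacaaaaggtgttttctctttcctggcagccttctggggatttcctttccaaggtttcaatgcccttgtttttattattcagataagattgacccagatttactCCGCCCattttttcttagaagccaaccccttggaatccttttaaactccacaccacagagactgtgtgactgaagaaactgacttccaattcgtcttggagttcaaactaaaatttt
Ang4: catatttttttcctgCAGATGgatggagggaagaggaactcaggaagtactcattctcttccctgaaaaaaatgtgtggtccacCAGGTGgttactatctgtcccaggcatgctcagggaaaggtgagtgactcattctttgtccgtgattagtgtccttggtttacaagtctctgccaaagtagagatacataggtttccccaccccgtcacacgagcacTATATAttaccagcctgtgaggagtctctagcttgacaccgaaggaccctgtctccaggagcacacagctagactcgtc
The outer window of Ang and Rnase4 holds 1 GC box and no match to the other motifs, whereas the inner window holds 3 E-boxes and 1 TATATA. Rnase1 has 1 GC box, and Ang4 has 2 E-boxes and 1 TATATA. These are common letters: 72.3% of all windows hold an E-box, 35.6% a GC box, 13.6% TATAAA and 5.7% TATATA. A match describes the letters and shows no binding. The Ang4 window aligned with that of Ang5 at 80.1% identity, and with the outer window of Ang at 44.1%.

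Angiogenin was lower in every Riclin library than in any saline library, and Rnase4 likewise by a smaller margin. Rnh1 was nearly equal in mean. Rnase1 was very high in 5 libraries and low in 1. Ang4 was near the limit of what could be read, and Rnase6 was low but was read in every library. The 4 members with at least 1 FPKM in at least 3 libraries, Ang, Rnase4, Rnase1 and Rnh1, entered a limma fit of 11738 genes on the scale log2(FPKM + 1), and Ang4 and Rnase6 did not. In 2 of these 4, every Riclin library lay below every saline library, as it did in 3.02% of all tested genes. None of the 4 passed a Benjamini-Hochberg adjusted p of 0.05 by limma, where 0 genes in all did (0%), and 1 of the 4, Ang, had an unadjusted p under 0.05, as did 5.90% of tested genes. A voom fit of the recovered reads passed 0 genes as well. Since the members were chosen with this contrast in view, nothing is read from these counts.

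**Figure D2:**
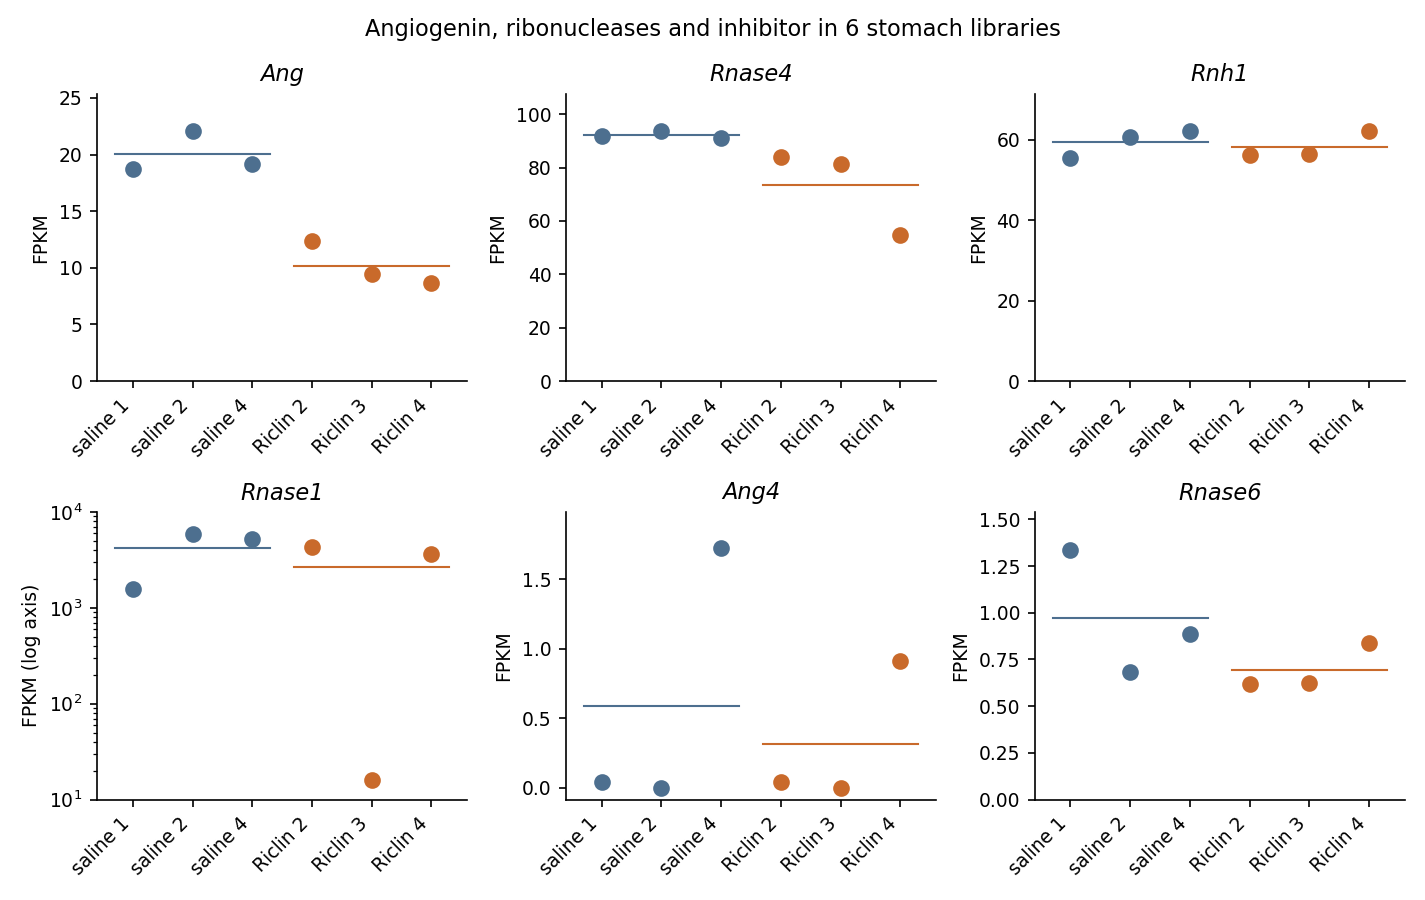
FPKM of each member in each library, with saline in blue, Riclin in orange and the group mean as a line; the Rnase1 axis is logarithmic. The groups lie apart in Ang (at least 18.8 in saline, at most 12.4 in Riclin) and in Rnase4, and overlap in the other members.

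Ang measured 18.8, 22.1 and 19.2 FPKM in saline replicates 1, 2 and 4. Riclin replicates 2, 3 and 4 had 12.4, 9.46 and 8.64 FPKM. The lowest saline library stood well above the highest Riclin library. The group means were 20.0 ± 1.80 FPKM with saline and 10.2 ± 1.97 with Riclin (SD of 3 libraries each), 1.97-fold lower in Riclin. On the log2(FPKM + 1) scale the difference was -0.92 (SE 0.143), beside a median of 0.04 over all tested genes. The values rest on 930, 1014 and 756 reads in saline and 588, 483 and 419 in Riclin. In whole tissue, fewer cells that make a transcript and less of it in each cell cannot be told apart.

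That difference kept its direction in all 16 other settings, and its size on the log2 scale lay between -1.06 and -0.83. Since the groups lay apart, leaving out libraries could not turn it, and the other filters leave the estimate as it is. Liver makes much angiogenin, so hepatocyte markers were read beside it. All 10 listed markers were in the table. They summed to 75.7 to 325 FPKM in saline and 68.4 to 281 in Riclin, highest in saline replicate 1 and Riclin replicate 3. Fga and Tat were at 0 in saline replicate 4. Albumin (Alb) ranged from 2.58 FPKM in saline replicate 4 to 143 in saline replicate 1. With saline replicate 1 and Riclin replicate 3 both left out, the Ang difference was -0.93 (SE 0.184). With pancreatic acinar genes removed and the libraries rescaled it was -0.99 (SE 0.169). The part of liver tissue in the Ang difference was not tested.

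The genes most like Ang over the 6 libraries, by Pearson's r of log2(FPKM + 1) among 11321 genes, were Cmss1 (r = 0.98), Hspb7 (r = 0.97) and Nudt22 (r = 0.97). Cmss1 measured 2.43, 2.46 and 2.38 FPKM in saline and 1.48, 1.34 and 1.21 in Riclin. Hspb7, a small heat shock protein gene, lay between 3.49 and 4.38 FPKM in saline and between 2.50 and 3.01 in Riclin. Each of these has its groups apart in the way Ang does. With so many genes and 6 libraries, high values of r arise readily, and they describe these libraries only.

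Rnase4 measured 91.9, 93.7 and 91.2 FPKM in saline replicates 1, 2 and 4. Riclin replicates 2, 3 and 4 had 83.9, 81.3 and 54.7. The saline libraries lay within 3 FPKM of each other, and Riclin replicate 4 was far below the other Riclin libraries. The means were 92.3 ± 1.27 FPKM with saline and 73.3 ± 16.2 with Riclin (SD of 3 libraries each), 1.26-fold lower in Riclin, with a log2 difference of -0.35 (SE 0.174). Without Riclin replicate 4 the difference was -0.16 (SE 0.14). The direction held in all 16 other settings, though here too leaving out libraries could not turn it, since the groups lay apart. These values rest on 4153 to 7133 reads.

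The genes most like Rnase4 were the antral hormone gene Gast (r = 0.99), the mucus protein gene Fcgbp (r = 0.99) and Scfd1 (r = 0.98), which acts in vesicle fusion. Riclin replicate 4 was lowest in each, at 2.62 FPKM for Gast against 389 to 1037 elsewhere, and at 0.63 FPKM for Fcgbp against 38.5 to 138. Goblet cell markers of the intestine were read beside Ang and Rnase4 too. All 7 were in the table and 5 were tested, of which 4 lay below 0. In 2 of these 5, Clca1 and Fcgbp, every Riclin library was below every saline library, as in 3.02% of all tested genes. They summed to 2353 to 5717 FPKM in saline and 866 to 3777 in Riclin, mostly from Zg16, which is on the acinar list too and was at 40.2 FPKM in Riclin replicate 3. The defining mucin gene Muc2 was at most 0.512 FPKM. Gastric cell markers also differed in mean. All 4 chief cell and all 7 parietal cell genes were above 0 in log2 difference, with 1 and 3 of them higher in every Riclin library (8.14% of all tested genes). All 4 mucous neck and all 6 surface mucous cell genes were below 0, with Gkn3 and Krt20 lower in every Riclin library. The part of these cells, and of what sets Riclin replicate 4 apart, in the Ang and Rnase4 values was not tested.

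The proportion of Ang to Rnase4, which share their starts, differed between the groups. Ang stood at 20.4, 23.6 and 21.05% of the Rnase4 level in saline replicates 1, 2 and 4, and at 14.8, 11.6 and 15.8% in Riclin replicates 2, 3 and 4. The group means of this within-library ratio were 21.7 ± 1.67% and 14.1 ± 2.17% (SD of 3 libraries each), and the groups did not overlap. Since both genes are read in the same library, this ratio does not depend on how libraries are scaled, though it does depend on how shared reads were counted. Leaving out one library at a time, the log2 difference of the ratio lay between -0.72 and -0.50. Over the 6 libraries the levels of both genes had a Pearson's r of 0.798, with the group difference included.

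**Figure D3:**
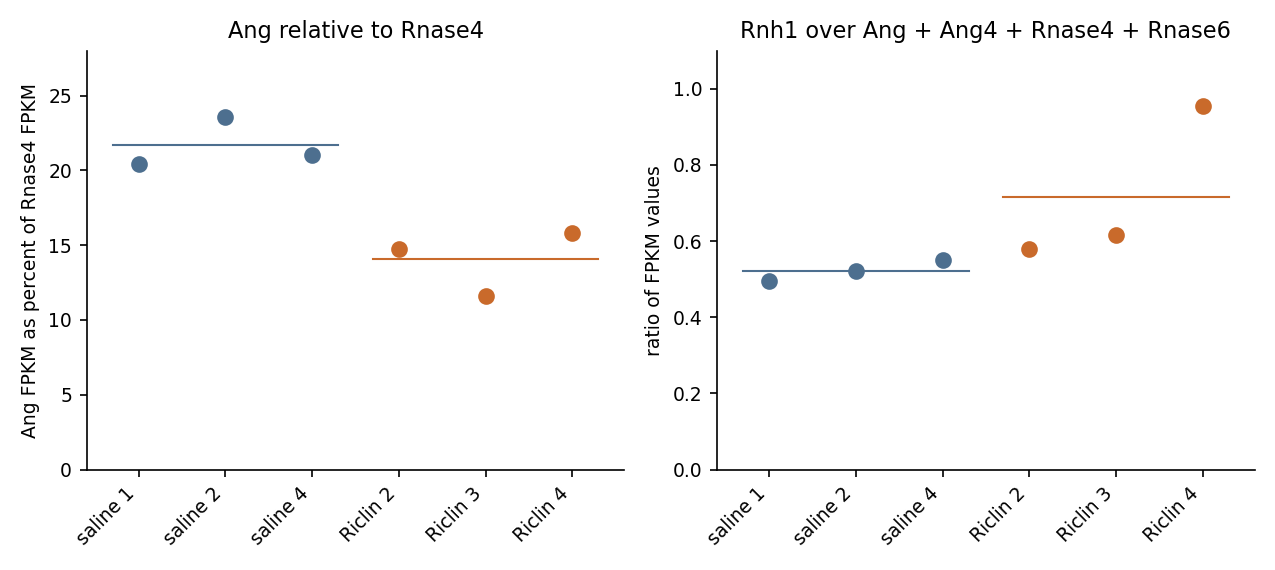
Left, Ang as a percent of Rnase4 (FPKM over FPKM) in each library; right, Rnh1 over the sum of Ang, Ang4, Rnase4 and Rnase6; lines are group means, saline in blue and Riclin in orange. The Ang ratio is 20.4 to 23.6% in saline and 11.6 to 15.8% in Riclin, and the Rnh1 ratio is highest in Riclin replicate 4, at 0.954.

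Rnase1 had the highest level of the members in 5 of 6 libraries, and its mean ranked 24th of all genes. It measured 1574, 5932 and 5215 FPKM in saline replicates 1, 2 and 4. Riclin replicates 2, 3 and 4 had 4304, 16.0 and 3634. Riclin replicate 3 stood apart from the rest, and the groups overlapped. The means were 4241 ± 2337 FPKM with saline and 2651 ± 2307 with Riclin (SD of 3 libraries each), with a log2 difference of -2.51 (SE 1.95). Without Riclin replicate 3 the difference turned to 0.12 (SE 0.571), and without saline replicate 1 as well it was -0.49 (SE 0.218).

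As a share of recovered reads, Rnase1 took 0.154% in saline replicate 1 (95% Wilson interval 0.153 to 0.155%) and 0.579% in saline replicate 2. In Riclin replicate 3 it took 0.00156% (0.00144 to 0.00169%), from 620 reads. Intervals cover counting error only. The level moved with transcripts known from the acinar cells of the pancreas, which make digestive enzymes. Most like Rnase1 over the 6 libraries were Cel, a bile salt lipase gene (r = 0.9995), and Try4, a trypsin gene (r = 0.9992). Of 26 listed acinar markers 25 were in the table. They summed to 37461 to 153377 FPKM in saline and 264 to 103152 in Riclin, with the lowest value in Riclin replicate 3. In that library 7 of the 25 were at 0, among them Cpa1, Spink1 and Gp2. Not every marker followed: Ptf1a was at 1.94 FPKM there, within the 1.47 to 6.78 FPKM of the other libraries. Of the 25, 24 had a log2 difference below 0 and 1, Ptf1a, above it.

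The ratio of Rnase1 to genes for digestive proteins was narrow for some and wide for others. It stood at 94.0 to 121% of the carboxypeptidase gene Cpa1 in the 5 libraries other than Riclin replicate 3, at 78.1 to 99.1% of Cel and at 62.3 to 81.9% of the elastase gene Cela1. Against the colipase gene Clps, which is not on the acinar list, it ran from 4.12 to 24.8% in the same libraries. In Riclin replicate 3 it was 0.0347% of Clps, so Clps did not fall there as the acinar markers did. Riclin replicate 3 departed from the narrow ratios in both directions. There Cpa1 had 0 reads, which allows up to 0.0474 FPKM, while 16.0 FPKM of Rnase1 remained. Cel was at 2.45 FPKM, so that Rnase1 stood at 652% of it, and Cela1 at 98.7 FPKM, so that Rnase1 stood at 16.2% of it. The lipase-related gene Pnliprp2 was at 213 FPKM there, against 389 to 1130 in the other libraries. Pecam1, a blood vessel marker, was at 21.3 FPKM in Riclin replicate 3, within the 20.2 to 23.2 FPKM of the other libraries. All 10 endothelial markers summed to 77.5 to 91.8 FPKM in saline and 87.2 to 92.6 in Riclin. The part of pancreatic tissue in the Rnase1 difference was not tested.

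**Figure D4:**
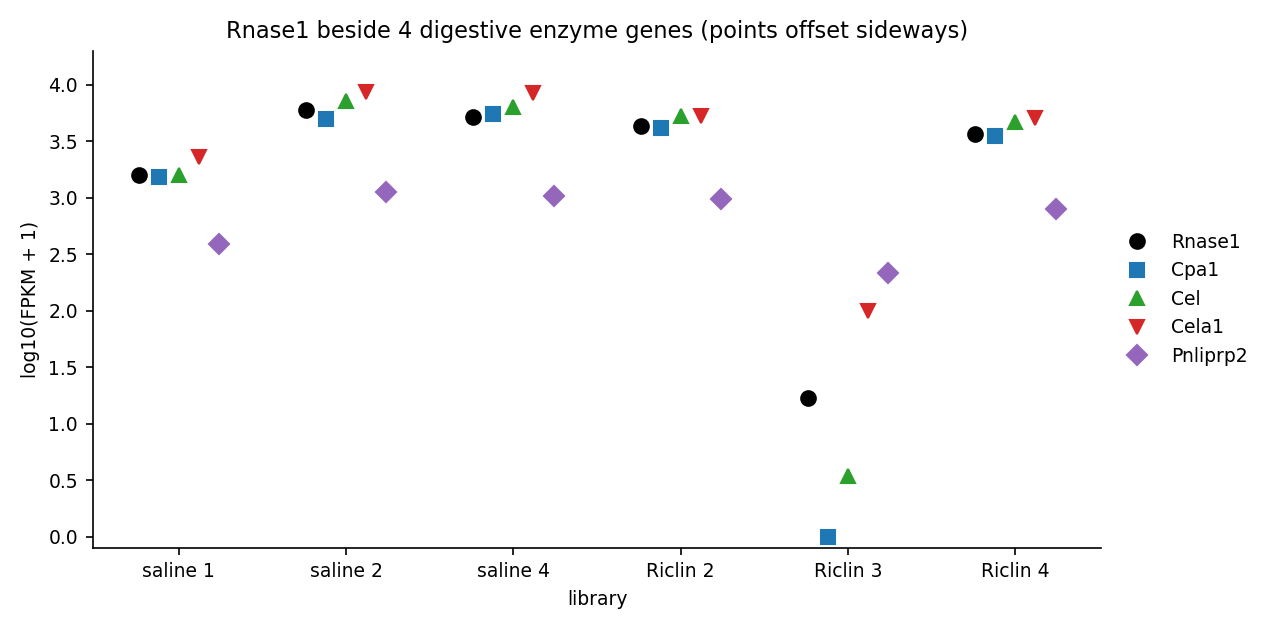
Rnase1 and the digestive enzyme genes Cpa1, Cel, Cela1 and Pnliprp2 in each library, as log10(FPKM + 1), with points of a library offset sideways. These genes keep a similar spacing in 5 libraries, and in Riclin replicate 3 they part, from 0 FPKM for Cpa1 through 16.0 for Rnase1 to 213 for Pnliprp2.

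Ang4 was at the limit of detection in 4 libraries. It measured 0.037, 0 and 1.72 FPKM in saline replicates 1, 2 and 4, from 1, 0 and 37 reads, and 0.0386, 0 and 0.908 FPKM in Riclin replicates 2, 3 and 4, from 1, 0 and 24 reads. Each group thus had 1 library with Ang4 and 2 nearly without. A count of 0 allows up to 0.12 FPKM in saline replicate 2 and 0.108 in Riclin replicate 3. The groups overlapped, at 0.587 ± 0.985 FPKM with saline and 0.316 ± 0.514 with Riclin (SD of 3 libraries each).

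Markers of Paneth cells, which store antimicrobial granules in the small intestine, were read beside it. Of 11 listed, 9 were in the table, and they summed to 406 to 1162 FPKM in saline and 217 to 993 in Riclin, mostly from Pnliprp2. The defining defensins Defa17, Defa24 and Defa30 and the protease Mmp7 were above 0 in saline replicate 4 alone, with Defa24 at 22.4 FPKM and Mmp7 at 0.523, and at 0 in the other 5. Their reads could not be resolved, since a gene above 0 in 1 library has no ratio to another. Lyz1, a lysozyme gene on the same list, was above 0 in every library. It lay between 2.15 and 5.07 FPKM, highest in saline replicate 4. The lectin gene Itln1 was highest in both libraries with Ang4, at 5.40 FPKM in saline replicate 4 and 1.40 in Riclin replicate 4, against 0 to 0.358 in the rest. The intestinal phosphatase Alpi was highest in saline replicate 4, at 42.0 FPKM, but lowest in Riclin replicate 4, at 0.146. It lay between 0.494 and 1.998 FPKM in the rest. Not all of the 9 listed absorptive genes followed Alpi. Fabp2, Rbp2, Sis and Lct were also highest in saline replicate 4, while Apoa1 and Apoa4 were lowest there. Fabp1 and Vil1 were highest in Riclin replicate 3. The list, mostly Apoa1, summed to 1160 FPKM in saline replicate 4, the lowest saline sum, and to 1156 to 1725 in Riclin. Riclin replicate 4, the other library with Ang4, had none of these defensins, and it had the highest level of Reg3g, an antibacterial lectin gene, at 98.8 FPKM. The part of intestinal tissue in the Ang4 values was not tested.

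Rnase6 was low in all libraries. It measured 1.34, 0.683 and 0.888 FPKM in saline and 0.617, 0.624 and 0.838 in Riclin, from 57 to 129 reads. Saline replicate 1 was highest, saline replicate 4 lay just above the highest Riclin library, and saline replicate 2 lay among the Riclin libraries. The means were 0.97 ± 0.335 and 0.693 ± 0.126 FPKM (SD of 3 libraries each), and fitted with no filter the log2 difference was -0.21 (SE 0.14). Of the 10 macrophage markers, all in the table and none at 0, the sum was 296 to 366 FPKM in saline and 245 to 345 in Riclin. The largest part came from Lyz2, at 106 to 189 FPKM. Of the 10 markers, 6 had a log2 difference above 0 and 4, Lyz2 among them, below. In 1, Adgre1, every Riclin library lay above every saline library, as in 8.14% of all tested genes. The part of these cells in the Rnase6 values was not tested.

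The inhibitor gene Rnh1 was the steadiest member. It measured 55.4, 60.7 and 62.2 FPKM in saline and 56.2, 56.4 and 62.1 in Riclin, and each group spanned nearly the same range. The means were 59.4 ± 3.58 and 58.2 ± 3.37 FPKM (SD of 3 libraries each), with a log2 difference of -0.03 (SE 0.109). Over all 6 libraries its coefficient of variation was 5.41%, against 37.5% for Ang, 17.6% for Rnase4 and 65.3% for Rnase1. The genes most like it were Nkx2-3 (r = 0.97), a transcription factor gene of gut mesenchyme, Hdac1 (r = 0.97), a histone deacetylase gene, and Foxm1 (r = 0.96), a cell cycle transcription factor gene. Hdac1 measured 25.9, 28.4 and 29.1 FPKM in saline and 26.8, 25.7 and 29.4 in Riclin.

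Inhibitor and enzymes were set against each other at the level of RNA within each library. Rnh1 amounted to 3.28, 1.004 and 1.17 FPKM per 100 FPKM of the 5 enzymes in saline replicates 1, 2 and 4. It amounted to 1.28, 52.5 and 1.68 in Riclin replicates 2, 3 and 4. Riclin replicate 3 is set apart by its low Rnase1, which made up 14.9% of the enzyme sum there and 93.4 to 98.2% in the other libraries. Without Rnase1, the sum of the other enzymes was 112, 116 and 113 FPKM in saline and 97.0, 91.4 and 65.1 in Riclin. Against that sum Rnh1 stood at 0.494, 0.522 and 0.55 in saline and at 0.579, 0.616 and 0.954 in Riclin. The groups did not overlap in this ratio, whose denominator is mostly Rnase4. They did not overlap in the denominator either, and Rnh1 was nearly equal, so the ratio restates the Rnase4 and Ang differences.

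By mean FPKM, which is per gene length, the order of the members was Rnase1, Rnase4, Rnh1, Ang, Rnase6 and Ang4. Rnase1 and Rnase4 overlapped in range only through Riclin replicate 3. Rnase4 lay above Rnh1 in 5 of 6 libraries, the exception being Riclin replicate 4. Rnh1 lay above Ang, and Ang above Rnase6, in all 6 with no overlap of their ranges. Rnase6 and Ang4 overlapped, with Rnase6 higher in 4 of 6 libraries.

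Of 16 further genes of the ribonuclease A superfamily, 11 were in the table and 2 passed the filter, Rnase2a and Ear2. Both belong to the eosinophil-associated ribonucleases, named for white blood cells that store such proteins in granules. Rnase2a measured 1.71, 3.13 and 0.843 FPKM in saline and 2.95, 0.325 and 38.3 in Riclin. Ear2 measured 1.90, 1.47 and 0.814 FPKM in saline and 1.46, 0.139 and 9.26 in Riclin. Riclin replicate 4 was far above the other libraries in both, and the groups overlapped. Their log2 differences were 1.105 (SE 1.07) and 0.38 (SE 0.692). Their coding sequences were 79.7% identical, with a shared run of 46 bases between transcripts, so that reads may be split among such copies. The other 9 genes had less than 1 FPKM in each library.

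All 6 listed eosinophil markers were in the table, and they summed to 1.60 to 2.96 FPKM in saline and 1.62 to 9.73 in Riclin. Riclin replicate 4 was highest in the granule protein gene Prg2, at 4.11 FPKM against 0.177 to 0.356 elsewhere, and in the receptor gene Ccr3, at 2.31 against 0.332 to 1.03. The peroxidase gene Epx was at 0.00768 FPKM in saline replicate 1 and at 0 in the other 5. The part of these cells in the Rnase2a and Ear2 values was not tested.

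Genes listed as angiogenin receptors or as partners in the cutting of transfer RNA were mostly close between the groups. Of 10 listed, 9 were tested, and 0 passed the adjusted threshold in either direction, as 0% of all tested genes did. Of these 9, 6 lay above 0 and 3 below, with a median log2 difference of 0.02, beside 0.04 over all tested genes. The receptor gene Plxnb2 measured 57.7 ± 7.28 FPKM with saline and 63.2 ± 2.81 with Riclin (SD of 3 libraries each), with a log2 difference of 0.13 (SE 0.124). Nsun2, which methylates transfer RNA and shields it from cutting, measured 19.9 ± 0.97 and 20.0 ± 2.20 FPKM. Ybx1, which binds the cut fragments, measured 140 ± 12.01 and 142 ± 21.3 FPKM. Sdc4, a cell surface proteoglycan gene, measured 54.0 ± 5.42 and 52.4 ± 4.73 FPKM. The heat shock gene Hspa1a differed most in mean, at 2.03, 6.63 and 7.17 FPKM in saline and 9.26, 28.8 and 3.55 in Riclin, with overlapping groups and a log2 difference of 0.96 (SE 0.663). Only Alkbh1, which removes methyl groups from transfer RNA, had its groups apart, with Riclin higher at 2.53, 2.81 and 2.90 FPKM against 2.14, 2.29 and 2.19. It was named after its values were seen. Such a separation in the higher direction was found in 8.14% of tested genes.

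**Figure D5:**
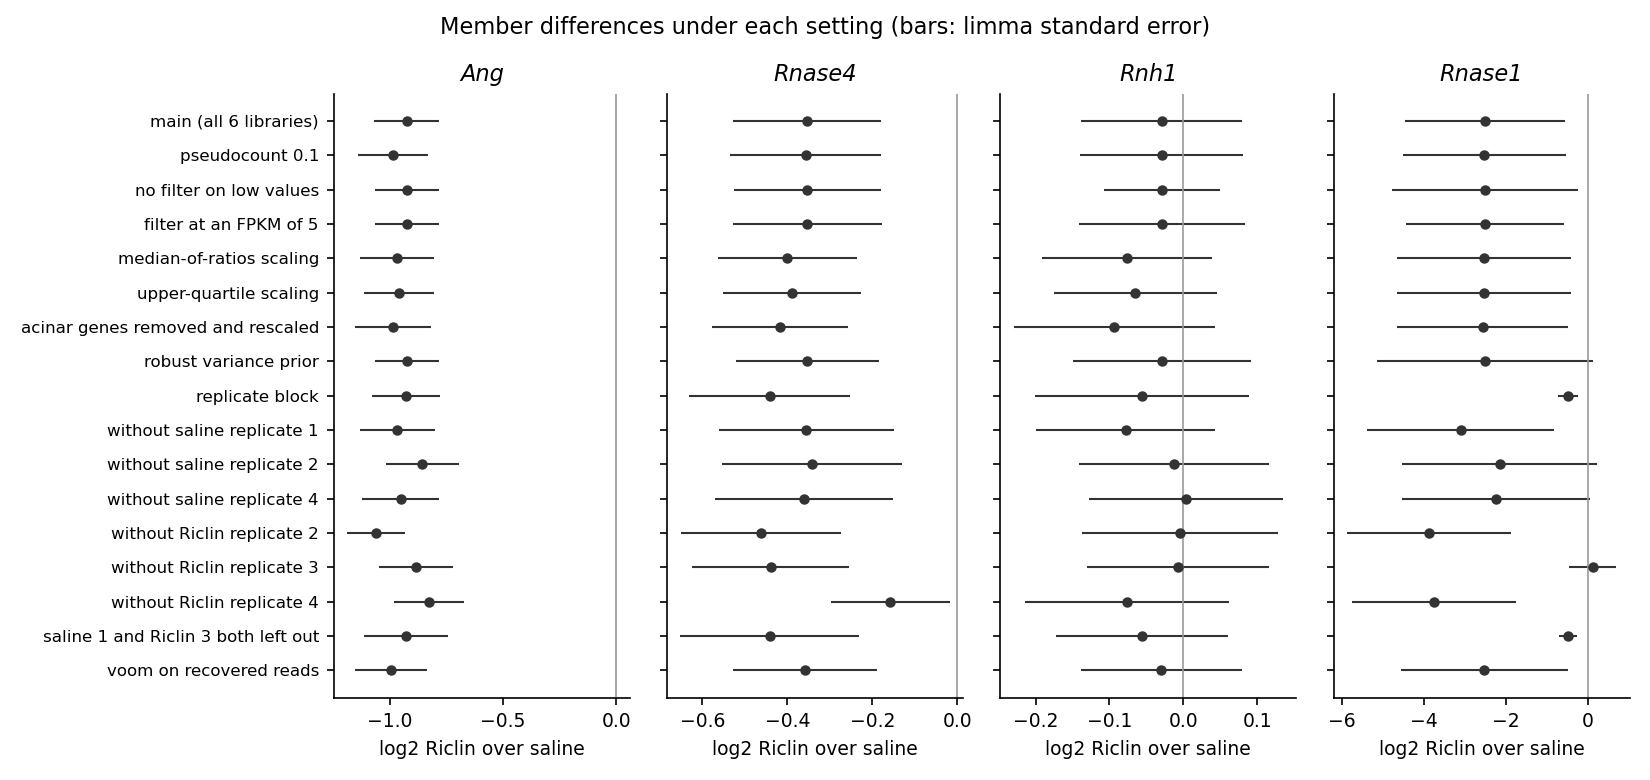
Log2 difference (Riclin over saline) of the 4 fitted members with all 6 libraries and under 16 other settings; points are estimates, bars are limma standard errors and the vertical line is 0. Ang and Rnase4 stay below 0 throughout, Rnh1 stays within 0.1 of 0, and Rnase1 runs from -3.88 to 0.12 with the value without Riclin replicate 3 highest.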

How the data were processed

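RNA from whole mouse stomach was sequenced in 6 libraries. The authors deposited 1 table of FPKM values, and per the submitters' processing notes mm10 and Bowtie2 were used, with no role or version stated. Counting tool, annotation and strandedness: not given in the sources used here. Groups follow the treatment labels and replicate numbers the titles. Members, gene lists and tests were chosen with earlier results of these data known.

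Whole reads were recovered from the ratios between libraries, to within 1e-04 reads. For the 2277 genes above 0 in 1 library alone there is no such ratio, and their reads are unresolved and were set to 1 in library totals. In data simulated at these depths, 98.9% of 1234 genes (all libraries at 20 reads or more) were recovered exactly. Genes with FPKM of at least 1 in at least 3 libraries (11738) were fitted on log2(FPKM + 1) with limma 3.58.1 (R 4.3.3), with a trended variance prior, two-sided, with Benjamini-Hochberg adjustment. This scale understates changes of low genes. The fit was also tested on simulated data. For each member with a mean of at least 1 FPKM the 3 genes with the highest Pearson's r were named, except for 1 that is not reported here. Most other genes named are superfamily genes at 1 FPKM or more, the highest genes of a list or defining markers. Some, such as Sdc4, Nsun2, Hspa1a, Alkbh1, Ern1 and Rnaseh2a, were named outside this rule. Eif4a1 and Eif4g1, among the highest genes of the angiogenin list, are not described. Promoters are from RefSeq and exons from GENCODE M21. Figures were drawn with matplotlib 3.10.9.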

Additional observations from a re-analysis of the deposited data

How the results depend on the processing

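The count of genes past the adjusted threshold, 0 of 11738 by limma, was also 0 with a pseudocount of 0.1, with no filter, with a filter at 5 FPKM, with median-of-ratios or upper-quartile scaling, with acinar genes removed, with saline replicate 1 and Riclin replicate 3 both left out, and with voom. With a robust variance prior it was 2 (Clca1 and Gm52608), and leaving out one library at a time it ran from 0 to 1 (Cd79b, without saline replicate 2). These genes are no members and were named after their values were seen, and the cause was not tested. Over the 16 alternatives the log2 difference ran from -1.06 to -0.83 for Ang, from -0.46 to -0.16 for Rnase4, from -0.09 to 0.0038 for Rnh1 and from -3.88 to 0.12 for Rnase1. Rnh1 turned without saline replicate 4. Without Riclin replicate 3, Rnase1 turned, and so did Rnh1 per enzyme (log2 difference of 1.62, and -0.10 without it). With no filter, Ang4 had a log2 difference of -0.17 (SE 0.469).

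The groups share the replicate numbers 2 and 4. Deviations from the group means correlated at 0.222 and 0.0109 in these pairs, over 11738 genes. Pairs of unlike number ran from -0.438 to 0.391. Whether a shared number stands for a pairing cannot be told from these values. With the replicate block 0 genes passed, and the log2 difference was -0.93 for Ang, -0.44 for Rnase4, -0.06 for Rnh1 and -0.49 for Rnase1. Only the libraries numbered 2 and 4 inform this fit. Its estimates equal those with saline replicate 1 and Riclin replicate 3 both left out. Depth limits Ang4 and Rnase6, whose values rest on 0 to 37 and 57 to 129 reads.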

Other observations

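Ribonucleases of other families were also measured. Of 15 listed, all were tested, and 0 passed the adjusted threshold by limma, as 0% of all tested genes did. An unadjusted limma p under 0.05 was found in 0 of them, and in 5.90% of all tested genes. In 1, Ern1, every Riclin library was above every saline library (8.14% of all tested genes). In 1, Rnaseh2a, every Riclin library was below (3.02%). Both were named after their values were seen. Of these 15, 9 had a log2 difference above 0 and 6 below, with a median of 0.06, beside 0.04 over all tested genes. The lysosomal ribonuclease gene Rnaset2a measured 57.7 ± 6.74 FPKM with saline and 61.0 ± 13.0 with Riclin (SD of 3 libraries each). Its copy Rnaset2b varied much more, at 18.8, 36.4 and 6.36 FPKM in saline and 4.82, 6.09 and 17.4 in Riclin, with no separation of the groups. Reads of such near-identical copies may be split by the counting. Samhd1, an antiviral nucleotide hydrolase gene, measured 11.97 ± 1.30 and 13.6 ± 1.11 FPKM. Among sensors of released RNA, Tlr3 measured 2.60 ± 0.484 FPKM with saline and 3.39 ± 0.59 with Riclin, with overlapping groups.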
